A study of Mus musculus with 6 samples.

Results

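Scml2, Ct55, Nxf3, Taf7l, Usp26, Tex16 and Cited1 are 7 genes of the mouse X chromosome, described here across 6 arrays from mouse embryonic stem (ES) cells. They were chosen by name after the difference between the groups of this experiment was known, so that all 7 are higher in 1 group by choice. Their levels are therefore described without a test. They make up 7 of the 19937 genes measured, and each is read by a single probe set of the array.

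The cells were male ES cells cloned from 46C, a line of the 129P2/OlaHsd background in which GFP was knocked into the Sox1 gene, and both groups carried this knock-in. They were stably transfected either with a control vector or with a vector for FLAG-tagged mouse CTCFL, a paralog of the insulator protein CTCF that is normally made in male germ cells. Both groups were kept in medium with 10% serum and under 1 µg/ml puromycin. The design text states 3 biological replicates per group, but the labels do not tell how many clones or transfections stand behind them, so that p-values measure the spread between these arrays and may reflect technical differences. RNA levels were measured with Mouse Gene 1.0 ST arrays of Affymetrix, 1 sample per array, and are given as log2 signal, a scale on which a difference of 1 is a doubling. In bulk RNA, a change in the number of cells that make a transcript and a change in the RNA per cell cannot be told apart. The number of arrays, 3 against 3, limits the precision.

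The X chromosome carries many genes that are read in spermatogonia, the dividing germ cells of the testis, and is then silenced as a whole when male germ cells enter meiosis. Scml2, Taf7l, Usp26 and Tex16 belong to this group. Scml2 is a Polycomb protein of the SCM family that associates with Polycomb repressive complex 1. Taf7l is a germ cell paralog of the TFIID subunit Taf7, Usp26 is a deubiquitinase and Tex16 is named for testis expression. Nxf3 is an RNA export family member, and which cells of the testis read it was not examined here. Ct55 is known as a cancer/testis antigen. Cited1, a transcriptional coactivator that binds CBP and p300, is best known from other tissues, so that the term spermatogonial does not cover it. No germ cells were measured in this experiment.

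The sequences before the start sites are shown for 4 of the genes, to let what they share be read from the letters: Scml2 and Ct55 are among the genes with the greatest differences, Taf7l and Tex16 among those with small ones. Sequences are from RefSeq (GRCm38.p6), 5′ to 3′ on the strand of the gene, and cover the 250 bases before the annotated start. Capitals mark matches to any of 4 motifs, each searched on both strands. The first is the E-box CACGTG, to which basic helix-loop-helix proteins bind, and the second is the core of the E2F motif, spelled GCGGGA. The third is the box that TBP binds in many promoters, TATAAA, and the last is the inner part of the CTCF motif, CAGNNGGC. Scml2 lies on the plus strand, at chrX:161162500-161162749, Ct55 on the plus strand at chrX:53724581-53724830, Taf7l on the minus strand at chrX:134476491-134476740 and Tex16 on the plus strand at chrX:112093270-112093519.
Scml2: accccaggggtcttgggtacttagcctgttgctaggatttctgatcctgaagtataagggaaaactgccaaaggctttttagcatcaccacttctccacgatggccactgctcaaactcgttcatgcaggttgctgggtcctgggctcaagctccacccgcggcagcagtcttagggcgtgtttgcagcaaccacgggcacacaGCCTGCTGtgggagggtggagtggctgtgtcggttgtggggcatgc
Ct55: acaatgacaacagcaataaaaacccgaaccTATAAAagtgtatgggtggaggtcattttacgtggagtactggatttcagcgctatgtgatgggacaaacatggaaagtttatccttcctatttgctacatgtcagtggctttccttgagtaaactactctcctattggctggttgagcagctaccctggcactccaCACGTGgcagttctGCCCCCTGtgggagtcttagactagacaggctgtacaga
Taf7l: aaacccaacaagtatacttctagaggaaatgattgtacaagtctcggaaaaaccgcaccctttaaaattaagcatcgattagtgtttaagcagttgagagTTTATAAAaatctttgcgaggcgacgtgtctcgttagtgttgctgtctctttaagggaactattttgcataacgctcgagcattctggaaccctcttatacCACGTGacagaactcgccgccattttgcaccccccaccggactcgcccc
Tex16: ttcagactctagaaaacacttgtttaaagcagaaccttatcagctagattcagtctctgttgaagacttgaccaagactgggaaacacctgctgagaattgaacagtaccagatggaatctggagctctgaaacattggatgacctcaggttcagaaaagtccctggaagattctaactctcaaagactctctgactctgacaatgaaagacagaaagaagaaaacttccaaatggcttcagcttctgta
In Scml2 the capitals are 1 match to CAGNNGGC on the opposite strand, whose first base lies at -46 from the start. Ct55 holds a TATAAA at -220, a CACGTG at -53 and an opposite-strand CAGNNGGC at -39. Taf7l holds a CACGTG at -49, and its TATAAA at -148 overlaps a match on the opposite strand at -150. The windows searched reach from 250 bases before to 50 after the start. Windows were found for 6 of the 7 genes, 8 in all, of which 3 belong to Cited1. Nxf3 had no entry.

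CACGTG was found in 2 of these 8 windows and in 7.15% of the 32851 windows of all genes. CAGNNGGC was found in 4 of the 8, those of Scml2 and Ct55 and 2 of Cited1, and in 25.9% of all windows. TATAAA was found in 4 of the 8 (Ct55, Taf7l and 2 of Cited1) and in 13.6% of all, and GCGGGA in 0 of the 8 and in 20.0% of all. None of these 4 motifs was found in the windows of Usp26 and Tex16, and no motif was found in the windows of all 6 genes. Base composition also varied between the 6 genes. The share of G and C was 57.3% in Scml2, 48.0% in Ct55, 47.0% in Taf7l, 41.3% in Usp26, 40.3% in Tex16 and 59.7% to 64.7% in the windows of Cited1, against a median of 52.7% over all windows. Tex16 held 0 CpG dinucleotides, Scml2 13 and Taf7l 17, against a median of 7. Matches are given as a description of the letters and not as binding sites.

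Ctcfl, the gene carried by the vector, read 7.70, 7.85 and 7.89 on the control arrays and 11.33, 11.22 and 11.24 on the FLAG-CTCFL arrays, a difference of 3.45 ± 0.05 (SE) with a limma adjusted p of 6.15e-13. Between the groups 6161 of the 19937 genes changed (30.9%; limma, Benjamini-Hochberg adjusted p under 0.05), 2496 of them higher (12.5%) and 3665 lower (18.4%) with FLAG-CTCFL. Of the ES cell markers, 5 of 8 fell, among them Nanog by 0.62 and Esrrb by 0.50, while Pou5f1 differed by -0.11 (adjusted p = 0.156), and the log2 of their summed signal was 15.80 to 15.81 on the control arrays and 15.44 to 15.56 on the FLAG-CTCFL arrays. A bound for background was set at 7.62, the 95th percentile of the control signal of 1190 olfactory and vomeronasal receptor genes.

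Scml2, Ct55 and Nxf3 differed most between the groups of the 7 genes. Scml2 read 8.49, 8.57 and 8.61 on the control arrays and 10.61, 10.45 and 10.60 on the FLAG-CTCFL arrays. Its lowest FLAG-CTCFL array lay 1.85 above its highest control array, and its means of 8.55 ± 0.06 and 10.56 ± 0.09 (SD, n = 3 each) differed by 2.0 ± 0.05 (SE), or 4.0-fold. Among all 19937 genes, ordered from the largest rise downwards, it stood at rank 6.

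Ct55 read 7.89, 7.92 and 7.85 on the control arrays and 10.12, 10.00 and 10.12 on the FLAG-CTCFL arrays. The groups stood 2.08 apart, the widest gap of the 7 genes and far wider than the range of either group. Its control mean of 7.89 ± 0.03 (SD, n = 3) lay just above the background bound of 7.62. The difference was 2.19 ± 0.05 (SE), or 4.57-fold, and rank 5 of all genes.

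Nxf3, a member of the family of nuclear RNA export factors, read 8.75, 8.69 and 8.72 on the control arrays and 10.68, 10.30 and 10.51 on the FLAG-CTCFL arrays. The control arrays lay close together, whereas the FLAG-CTCFL arrays were the most spread of any of the 7 genes, with a mean of 10.50 ± 0.19 (SD, n = 3) against 8.72 ± 0.03. Even so the groups stood 1.56 apart. The difference was 1.78 ± 0.07 (SE), or 3.43-fold, at rank 8 of all genes. Levels are compared between groups and not between genes, which have different probes.

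**Figure D1:**
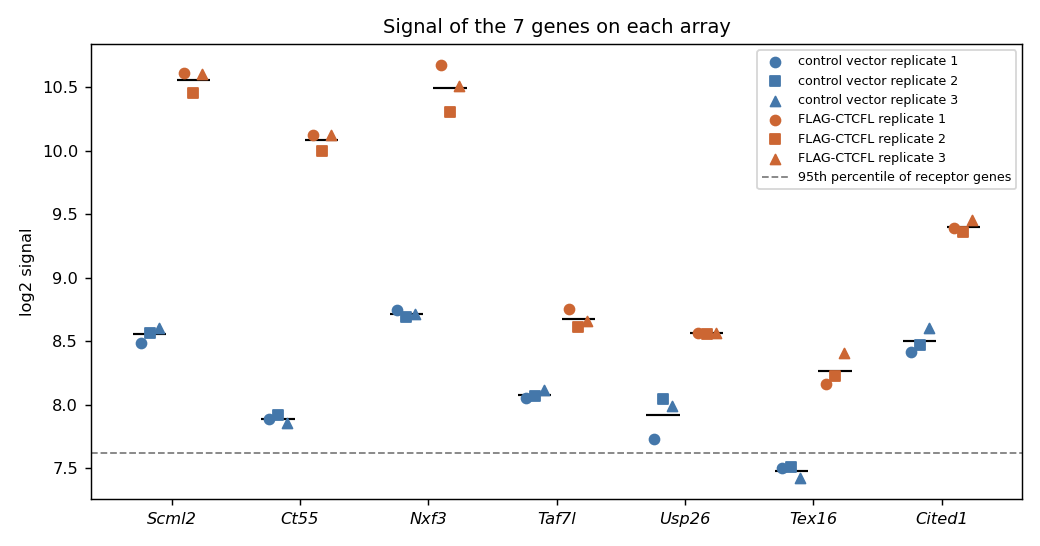
Log2 signal of the 7 genes (horizontal axis) on each array: control vector and FLAG-CTCFL arrays in separate colours, marker shapes for replicates 1 to 3, bars for group means, and a dashed line at the receptor-gene bound of 7.62. Every FLAG-CTCFL array lies above every control array for all 7 genes, by 1.56 to 2.08 for Scml2, Ct55 and Nxf3 and by 0.50 to 0.75 for the other 4. The 7 genes were chosen on this difference, and 18.3% of all genes were apart in the same direction.

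Cited1 and Tex16 came next. Cited1 read 8.42, 8.47 and 8.61 on the control arrays and 9.39, 9.36 and 9.45 on the FLAG-CTCFL arrays. The groups stood 0.75 apart, and control replicate 3 was the highest of the controls. The means were 8.50 ± 0.10 and 9.40 ± 0.05 (SD, n = 3 each), a difference of 0.90 ± 0.05 (SE) or 1.87-fold, at rank 59.

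Tex16 read 7.51, 7.51 and 7.42 on the control arrays and 8.17, 8.23 and 8.41 on the FLAG-CTCFL arrays. It was the only 1 of the 7 whose control mean, 7.48 ± 0.05 (SD, n = 3), lay below the background bound, so that its difference of 0.79 ± 0.06 (SE), or 1.73-fold, bounds the change in RNA from below. FLAG-CTCFL replicate 3 was the highest array, and the groups stood 0.65 apart. Its rank was 79.

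Usp26, a deubiquitinase known from the testis, read 7.73, 8.04 and 7.99 on the control arrays and 8.57, 8.56 and 8.56 on the FLAG-CTCFL arrays. Here the controls were the spread group: control replicate 1 lay 0.19 below the control mean, while the FLAG-CTCFL arrays had an SD of 0.0063 (n = 3). The difference was 0.64 ± 0.07 (SE), or 1.56-fold, at rank 126, and the groups stood 0.51 apart.

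Taf7l read 8.05, 8.07 and 8.11 on the control arrays and 8.75, 8.61 and 8.66 on the FLAG-CTCFL arrays. It had the smallest difference of the 7 genes, 0.60 ± 0.05 (SE) or 1.51-fold, and the narrowest gap between the groups, 0.50. That gap was still wider than the range of either group. Its rank was 152 of 19937.

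All 7 genes passed the threshold that 30.9% of genes passed, and in all 7 the arrays of the groups did not overlap, as was so in the same direction for 18.3% of genes. Because the genes were chosen on this difference, these counts are not evidence. Their differences had a median of 0.90 and ranged from 0.60 to 2.19, with 3 of the 7 among the 15 largest rises and 5 among the 100 largest. A step from 0.90 to 1.78 divided Scml2, Ct55 and Nxf3 from the other 4.

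Within the FLAG-CTCFL group the same array tended to be low. Replicate 2 was the lowest of the 3 for 6 of the 7 genes, at -0.19 from the group mean for Nxf3, -0.10 for Scml2, -0.08 for Ct55, -0.06 for Taf7l, -0.04 for Cited1 and -0.0066 for Usp26. Tex16 was the exception, with its lowest value in replicate 1 (-0.10) and its highest in replicate 3 (0.14). Replicate 2 was also the lowest for Ctcfl, at -0.05, and had the smallest SD over all probe sets, 1.41 against 1.47 and 1.44. Its median was the highest, at 7.99. Whether these have a part in the lower values was not tested. The share of all genes with their lowest FLAG-CTCFL value in replicate 2 was not counted. The 6 of 7 can therefore not be read as particular to these genes. Without replicate 2 the differences were 2.05 for Scml2, 2.23 for Ct55 and 1.87 for Nxf3.

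The profiles of the 7 genes over the 6 arrays, each centred on its own mean, fell by likeness into the same groups as their differences. Likeness was measured as the root mean square distance in log2 units, which is small where the difference is of like size. Scml2 lay 0.107 from Ct55 and 0.137 from Nxf3, Taf7l lay 0.0985 from Usp26, and Tex16 lay 0.115 from Cited1. Distances between Scml2, Ct55 or Nxf3 and any of the other 4 were 0.453 to 0.800. Among all genes measured, the nearest to Ct55 was Rhox13, an X-linked homeobox gene of the germ line, at 0.0532 with a difference of 2.20. The next were Scml2 and Stra8, the retinoic acid-induced gene of germ cells that enter meiosis, at 0.178 with a difference of 2.34.

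The nearest to Scml2 was Dnajc5g, a DnaJ family gene, at 0.0979 with a difference of 1.86 from a control level within background, followed by Ct55 and by Rhox13 at 0.114. Nxf3 was nearest to Peg10, an imprinted retrotransposon-derived gene (0.074; difference 1.78), then to Dnajc5g at 0.0978 and to Asz1, a gene of the germ cell piRNA pathway (0.112; difference 1.68). For the other 4 genes the nearest ones had differences of like size. Taf7l lay nearest to Mospd3 (0.0355), Nr6a1, the germ cell nuclear factor (0.0379), and Adk (0.0393). Usp26 lay nearest to Zmiz1 (0.0438), Trpa1 (0.0644) and Tuba3a (0.0645). Tex16 lay nearest to Cryz (0.0589), Kctd1 (0.0654) and Med12l (0.0683). Cited1 lay nearest to the neurofilament gene Nefh (0.0362), to Gstm5 (0.038) and to Slc6a19 (0.0491). With 6 arrays in 2 groups this measure mostly reads the size of the difference, so it was taken as a description.

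The 7 genes were spread along the X chromosome. In the order of its 739 measured genes they stood at place 203 (Usp26), 227 (Ct55), 448 (Cited1), 507 (Tex16), 543 (Taf7l), 566 (Nxf3) and 697 (Scml2). Taf7l and Nxf3 were the closest pair, followed by Usp26 and Ct55. Of the other 732 genes of the chromosome 69 rose (9.43%) and 230 fell (31.4%), with a median of -0.02. At least 2-fold higher were 3 of them, Rhox13 (2.20), the kinase gene Pim2 (1.21) and 1700013H16Rik (1.11), and 24 were at least 2-fold lower. This count over the chromosome was added after the values had been seen. The falls were not spread evenly along the chromosome. Of the 25 measured genes before Cited1, 18 fell and 1 rose, whereas of the 25 before Ct55, 3 fell and 4 rose. These windows were also chosen after the values had been seen, and the reason for the unevenness was not tested.

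**Figure D2:**
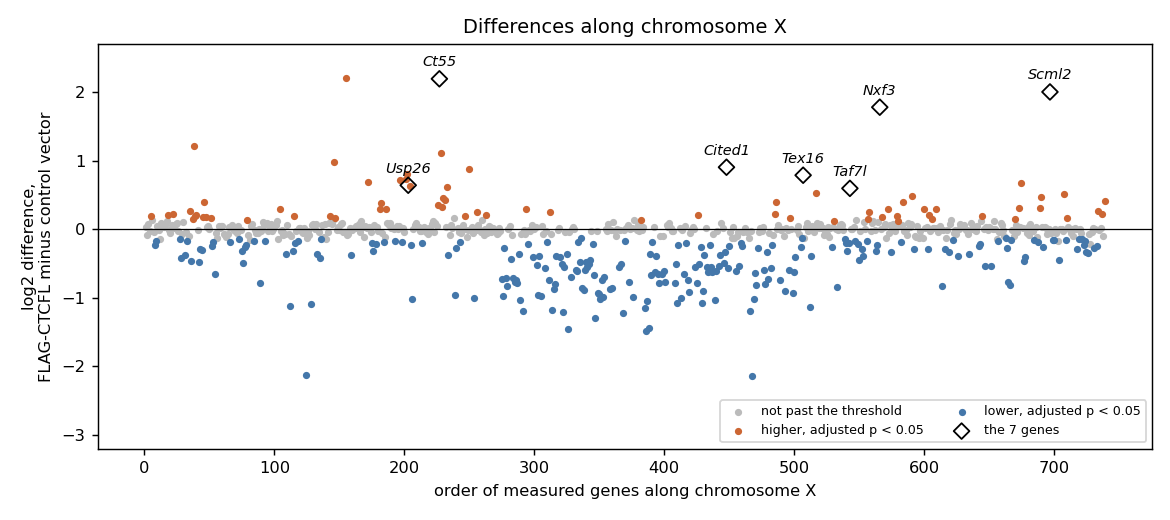
Log2 difference (FLAG-CTCFL minus control vector, vertical axis) of the 739 measured genes of chromosome X against their order along it; colours mark genes past the adjusted p threshold in each direction, and open diamonds the 7 genes. The 7 genes lie from place 203 to place 697, with Usp26 (203) near Ct55 (227) and Taf7l (543) near Nxf3 (566). Of the other 732 genes 230 are lower and 69 higher, and the lower ones are not spread evenly along the chromosome.

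The 5 nearest measured genes on each side of each of the 7 gave 70 neighbours, of which 9 rose, 21 fell and 40 did not pass, with a median of -0.0069 and a range of -1.13 to 1.11. The shares over all genes were 12.5% higher and 18.4% lower. The 9 that rose lay beside Ct55 (5), Usp26 (3) and Nxf3 (1), and 0 of the 10 neighbours of each of Scml2, Taf7l, Tex16 and Cited1 rose.

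Around Ct55 the genes on either side were higher too. The next gene after it, 1700013H16Rik, read 7.24, 7.27 and 7.29 on the control arrays, within background, and 8.61, 8.24 and 8.29 on the FLAG-CTCFL arrays, a difference of 1.11 ± 0.08 (SE; limma adjusted p = 1.67e-07). The next gene before it, Rtl8c, a retrotransposon-derived gene, read 7.82, 7.65 and 7.80 against 8.02, 8.14 and 8.15 and rose by 0.35 (adjusted p = 2.51e-04). Zfp36l3 rose by 0.32, Xlr, within background on the control arrays, by 0.45, and 3830403N18Rik, with both group means within background, by 0.43. With a control mean within background, the differences of 1700013H16Rik and Xlr are lower bounds. The other 5 of the 10 did not pass, and the median over all 10 was 0.22, well under the 2.19 of Ct55.

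Usp26 stood between genes of both directions. Its nearest neighbour before it, Hs6st2, a heparan sulfate 6-O-sulfotransferase, read 7.33, 7.38 and 7.45 on the control arrays and 8.18, 8.17 and 8.20 on the FLAG-CTCFL arrays, a difference of 0.80 ± 0.04 (SE; limma adjusted p = 2.36e-08). This is more than the 0.64 of Usp26 itself, although the control mean was within background. The nearest one after it, 1700080O16Rik, also within background on the control arrays, differed by 0.64 ± 0.05 (adjusted p = 2.16e-07), a lower bound like that of Hs6st2. Mbnl3, a splicing regulator, differed by 0.74 ± 0.07 (adjusted p = 1.91e-06). Of the glypican genes close by, Gpc3 read 10.66, 10.81 and 10.73 against 9.58, 9.73 and 9.84 and fell by 1.02 (adjusted p = 6.25e-08), and Gpc4 fell by 0.23. Stk26 fell by 0.18, but not after quantile normalization (adjusted p = 0.0846).

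**Figure D3:**
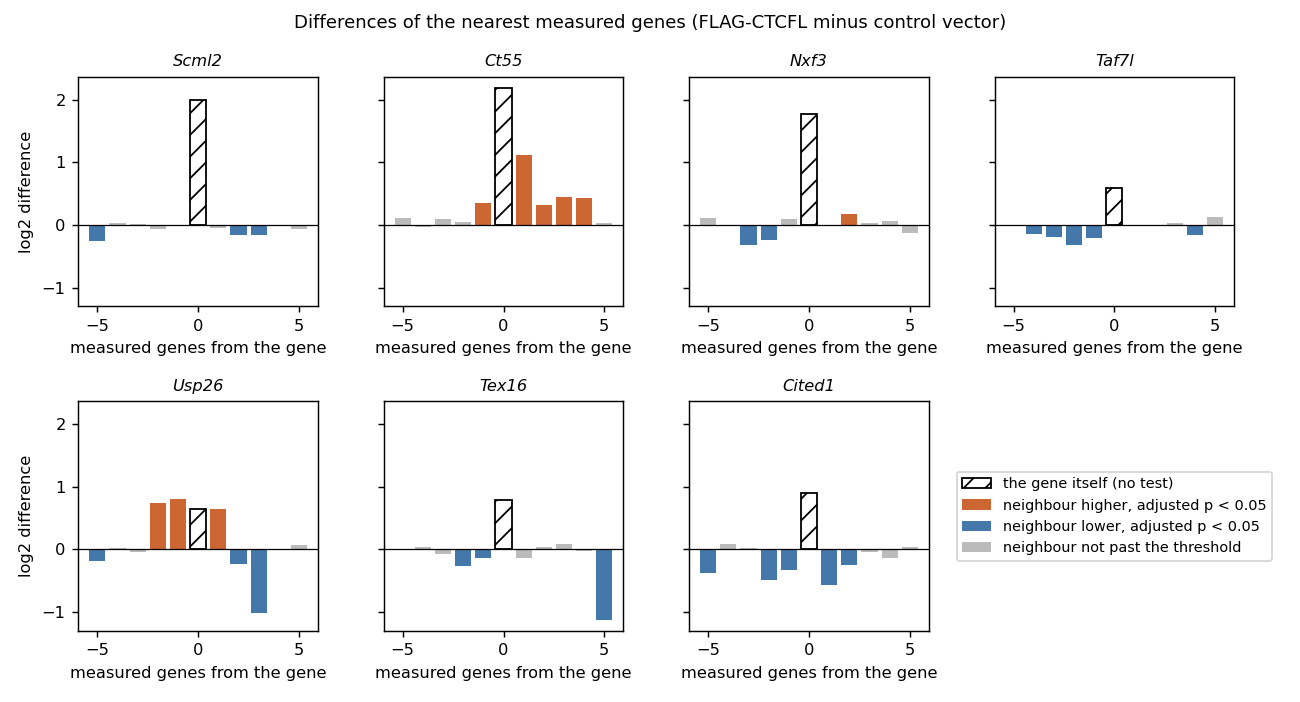
Log2 difference (FLAG-CTCFL minus control vector, vertical axis) of the 5 nearest measured genes before and after each of the 7 genes, by place along the chromosome; the hatched bar is the gene itself, and colours mark neighbours past the adjusted p threshold in each direction. Bars beside Ct55 and Usp26 include 5 and 3 genes that rose, whereas beside Cited1 and Taf7l 5 neighbours each fell and 0 rose.

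The genes next to Scml2 and Nxf3, which differed by 2.0 and 1.78, did not pass the test. The nearest neighbours of Scml2 were Gja6, at 0.0047 (limma adjusted p = 0.964), and Rai2, at -0.05 (0.516), both within background in both groups. Those of Nxf3 were Bex2, at 0.10 (0.145), and Bex4, at -0.0033 (0.981). Farther out beside Scml2, where 3 of the 10 neighbours fell, Pdha1 fell by 0.26, Nhs by 0.16 and Reps2 by 0.15, and beside Nxf3, Arxes1 fell by 0.23, Arxes2 fell by 0.32 and Tceal8 rose by 0.17. The calls of Nhs, Reps2 and Tceal8 were each lost without any of 3 or more single arrays, with adjusted p up to 0.108, 0.167 and 0.110.

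Beside Taf7l 5 of the 10 neighbours fell and 0 rose. Next to it, Timm8a1 was at 0.0066 (limma adjusted p = 0.950) and Drp2 fell by 0.20, while Cenpi, a centromere protein, fell by 0.32, Tmem35a by 0.19, Gla by 0.16 and Trmt2b by 0.14. The calls of Drp2, Tmem35a, Gla and Trmt2b were lost without 1 or other of the arrays, with adjusted p up to 0.062, 0.056, 0.0884 and 0.104. Beside Tex16 3 of the 10 fell and 0 rose, where 31.4% of the other genes of the chromosome fell. That share differed along the chromosome. In windows of 25 genes, chosen after the values had been seen, 10 fell and 3 rose before Tex16. In the window after Tex16, 3 fell and 2 rose. Next to it, Apool was at -0.13 (adjusted p = 0.0801) and Hdx fell by 0.13, a call lost without any of 5 single arrays (adjusted p up to 0.159). Pof1b, 1 of the 10 neighbours of Tex16, read 8.34, 8.43 and 8.31 against 7.15, 7.34 and 7.20, a fall of at least 1.13 since its FLAG-CTCFL mean lay within background, and Rps6ka6 fell by 0.26.

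Beside Cited1 5 of the 10 neighbours fell and 0 rose, with a median of -0.19. Its nearest ones were Rps4x, a ribosomal protein gene, which fell by 0.33, and Hdac8, a histone deacetylase, which read 8.57, 8.63 and 8.53 against 8.02, 7.99 and 8.02 and fell by 0.56 (limma adjusted p = 4.39e-07). Ercc6l fell by 0.49, 8030474K03Rik by 0.38 and Phka1 by 0.24. In a wider window of 25 genes on each side, chosen after the values had been seen, 18 of the 25 genes before Cited1 fell and 1 rose (median -0.49), and 12 of the 25 after it fell and 0 rose (median -0.14). Cited1, at 0.90, thus lay in a stretch of lower genes. The same windows around Scml2 gave 6 higher and 12 lower genes of 50, and those around Nxf3 8 and 13. Around Ct55 there were 4 higher and 3 lower before it, and 7 higher and 4 lower after it. Around Usp26 there were 6 higher and 4 lower before it, and 4 higher and 3 lower after it. The windows of Ct55 and Usp26 overlap, as do those of Taf7l and Nxf3 and those of Tex16 and Taf7l, so that these counts share genes. Around Taf7l there were 1 higher and 6 lower before it, and 3 higher and 8 lower after it.

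The relatives and partners of the 7 genes moved in both directions. Their lists are described by counts, beside the shares of 12.5% higher and 18.4% lower over all genes and the median difference of 0.0037. Some genes stand on 2 lists (Taf4b, Nxf2, Nxf7 and Usp7).

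Among TFIID subunits and the TBP family, the general transcription machinery to which Taf7l belongs, 10 of 26 rose and 4 fell, with a median of 0.05. Taf7, the widely expressed paralog of Taf7l, read 9.43, 9.42 and 9.46 on the control arrays and 9.39, 9.33 and 9.37 on the FLAG-CTCFL arrays, a difference of -0.07 ± 0.04 (SE; limma adjusted p = 0.230). Taf1, the largest subunit and also X-linked, read 10.99, 11.12 and 10.99 against 10.07, 9.89 and 10.03 and fell by 1.04 (adjusted p = 1.57e-08). Taf1 lies among the 25 measured genes before Cited1, of which 18 fell and 1 rose. Rises were small: 0.35 for Taf15, 0.29 for Taf12, 0.29 for Tbpl1, 0.27 for Taf9, 0.24 for Taf4b, a TFIID subunit of germ cells, and 0.21 for Taf11. Taf5 fell by 0.45, Taf9b by 0.23 and Gtf2a1 by 0.14, the last lost in 8 of 14 alternatives (adjusted p up to 0.263). Without control replicate 3 the count of rises was 6.

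Of the mRNA export genes, the family and pathway of Nxf3, 8 of 26 measured rose and 3 fell, with a median of 0.10. Nxf1, the general export receptor, read 11.08, 11.15 and 11.08 on the control arrays and 11.56, 11.22 and 11.43 on the FLAG-CTCFL arrays, a difference of 0.30 ± 0.07 (SE; limma adjusted p = 0.00533). The arrays of Nxf1 did not overlap, and replicate 2 was again the lowest of the FLAG-CTCFL group. Nxt2, an X-linked partner of the NXF proteins, read 10.88, 10.85 and 10.77 against 10.04, 10.02 and 9.97 and fell by 0.82 (adjusted p = 2.20e-08). Nxf2 was at 0.10 (adjusted p = 0.116), within background, and Nxf7 rose by 0.15, also within background.

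The splicing-coupled export genes Ddx39b and Alyref rose by 0.29 and 0.27, Xpo1 by 0.23, Ddx39a by 0.21 and Thoc3 by 0.17, and Nup98 and Thoc7 fell by 0.18 and 0.17. The calls of Nxf7, Thoc3, Nup98 and Thoc7 were lost without 1 or more single arrays, with adjusted p up to 0.130, 0.0558, 0.133 and 0.138. Without control replicate 2, control replicate 3 or FLAG-CTCFL replicate 2 the count of falls was 1. After quantile normalization 20 export genes were higher and 2 lower, so that this count rests on the scaling.

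Of the Polycomb repressive complex 1 subunits and SCM and MBT proteins, to which Scml2 belongs, 3 of 29 measured rose and 5 fell, with a median of -0.0085. Scmh1, an autosomal SCM paralog of Scml2, was at -0.09 (limma adjusted p = 0.190). The X-linked BCL6 corepressor gene Bcor fell by 0.50 and its X-linked paralog Bcorl1 rose by 0.39. Sfmbt2 fell by 0.56, Phc1 by 0.37, Usp7 by 0.29 and Pcgf5 by 0.16, and Pcgf2 and Pcgf1 rose by 0.18 and 0.17. The calls of Pcgf1, Pcgf2 and Pcgf5 were lost without any of 2 or more single arrays, with adjusted p up to 0.202, 0.0701 and 0.144. Rises counted 1 without control replicate 2 or 3 and 5 without FLAG-CTCFL replicate 2, falls counted 9 without FLAG-CTCFL replicate 1, and after quantile normalization 6 were higher and 4 lower.

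Of the deubiquitinases related to Usp26 or X-linked, 2 of 15 measured rose and 5 fell, with a median of -0.08. Usp29, the autosomal paralog of Usp26, was at -0.03 (limma adjusted p = 0.711) and within background in both groups. X-linked Usp11 fell by 0.36, Usp7 by 0.29, Usp5 by 0.29, Usp22 by 0.19 and Usp13 by 0.19. Usp9y rose by 0.26 within background, and X-linked Usp27x rose by 0.20. The call of Usp22 was lost after quantile normalization (adjusted p = 0.0736) and that of Usp13 without control replicate 3 (adjusted p = 0.0619).

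Of the CITED family and its partners 1 of 15 measured rose and 4 fell, with a median of 0.0043. Both paralogs of Cited1 fell: Cited2 read 10.59, 10.66 and 10.64 on the control arrays and 10.27, 10.13 and 10.11 on the FLAG-CTCFL arrays, a difference of -0.46 ± 0.05 (SE; limma adjusted p = 1.30e-05), and Cited4 fell by 0.37 (adjusted p = 2.47e-04). Tfap2c, an AP-2 factor, fell by 0.73 and the hypoxia factor gene Epas1 by 0.35. Ep300 rose by 0.20. This call was lost when control replicate 1, control replicate 3, FLAG-CTCFL replicate 1 or FLAG-CTCFL replicate 3 was left out (adjusted p up to 0.104), which gave 0 rises, and there were 3 without FLAG-CTCFL replicate 2.

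**Figure D4:**
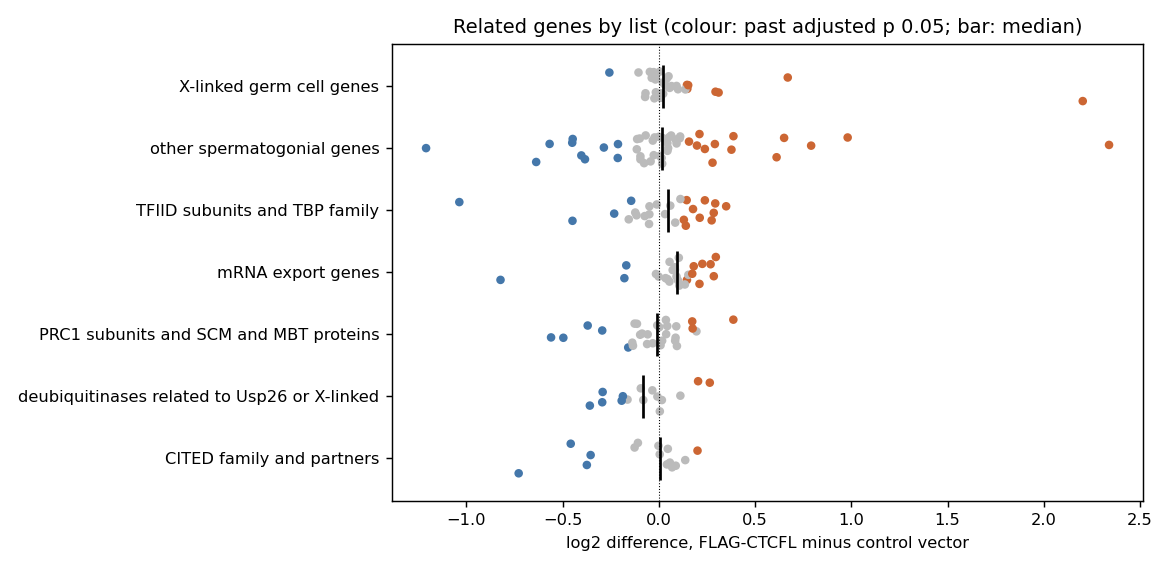
Log2 difference (FLAG-CTCFL minus control vector, horizontal axis) of every measured gene of the 7 lists; each point is a gene, coloured where it passed the adjusted p threshold in either direction, and the bar is the list's median. Medians lie between -0.08 and 0.10, and Rhox13 and Stra8 are the points above 2. The 7 genes, at 0.60 to 2.19, were chosen on this difference, so that their lying above these medians is not a result.

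Other germ cell genes of the X chromosome that were measured, 34 of the 69 listed, were mostly low in signal. Of 34 measured on this list, on which Mageb3 lies on chromosome 2 in the gene table, 7 rose and 1 fell, with a median of 0.02, and 24 of the 34 lay within background in both groups. Rhox13, with a difference of a size with those of Scml2 and Ct55, read 8.08, 8.22 and 8.11 on the control arrays and 10.43, 10.17 and 10.42 on the FLAG-CTCFL arrays, a difference of 2.20 ± 0.07 (SE; limma adjusted p = 1.11e-10). Within background, Magea5 rose by 0.67 and Magea6 by 0.31, genes of a cancer/testis antigen family whose close copies the probes may not tell apart, and Tex13b and Nxf7 rose by 0.15 each. Above the bound, Magea4 rose by 0.29, and Tex11, a meiotic gene, fell by 0.26. Like Taf1, Tex11 lies among the 25 measured genes before Cited1, of which 18 fell and 1 rose. The calls of Tex13b and Nxf7 were lost with control replicate 1 or FLAG-CTCFL replicate 3 left out, and that of Nxf7 with control replicate 3 left out too (adjusted p up to 0.124 and 0.130). With control replicate 1 or FLAG-CTCFL replicate 3 left out the count of rises was 4.

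Other spermatogonial genes, all but Rhox10 autosomal, moved both ways, with 13 of 48 higher, 10 lower and a median of 0.02. Stra8 rose by 2.34, Tex19.1, a germ cell gene that restrains retrotransposons, by 0.98, the piRNA helicase gene Mov10l1 by 0.79, the synaptonemal gene Sycp2 by 0.65, Eomes by 0.61 and Stk31 by 0.38. Sycp3, also of the synaptonemal complex, fell by 1.21, Tex14 by 0.64, Uchl1 by 0.57, Upp1 by 0.45, Kit by 0.45 and Bcl6b by 0.40.

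Of 10 markers of spermatogonia 1 rose. Some of them were already read in the control ES cells, with control means of 11.09 for Sohlh2, 10.22 for Dazl and 9.43 for Ddx4. Nanos2 lay within background there, at 7.57. Ddx4, the germ cell RNA helicase, rose by 0.28 (limma adjusted p = 7.04e-04), and the other 9 did not pass, among them Gfra1 at -0.03, Zbtb16 at 0.05, Dazl at 0.06 and Dmrt1 at -0.11. The log2 of the summed signal of the 10 was 12.48 to 12.61 on the control arrays and 12.59 to 12.61 on the FLAG-CTCFL arrays, ranges that overlap. Because ES cells read some of these markers, the sum does not tell whether spermatogonia were present. Of 8 Sertoli cell markers 0 passed the threshold, with Dhh, Fshr and Inha within background in both groups. Of 4 Leydig cell markers Cyp11a1 rose by 0.40 from a control mean within background, and Cyp17a1 and Hsd3b1 lay within background. Of 8 fibroblast markers Fbln1 fell by 0.64 and Col1a1 rose by 0.16, the latter lost without any of 4 single arrays (adjusted p up to 0.127). The median difference of the 8 was 0.07. The log2 of their summed signal was 11.39 to 11.46 on the control arrays and 11.21 to 11.30 on the FLAG-CTCFL arrays. This sum weighs most on Fbln1, the brightest of the 8 at a control mean of 10.22. Dcn, Lum and Postn lay within background.

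Of the markers of cells that ES cells can become, 3 of 8 for primitive endoderm rose, Pdgfra by 0.54, Dab2 by 0.19 and Gata6 by 0.14. The call of Dab2 was lost with probe sets averaged (adjusted p = 0.321) and that of Gata6 in 7 of 14 alternatives (adjusted p up to 0.194). Their summed signal was 10.87 to 10.90 on the control arrays and 10.94 to 11.03 on the FLAG-CTCFL arrays. Of 8 trophoblast markers 2 rose, Gata3 by 0.33 and Cdx2, from a control mean within background, by 0.30. Tfap2c fell by 0.73, and the median difference of the 8 was 0.06. Their summed signal was 11.11 to 11.14 on the control arrays and 11.02 to 11.08 on the FLAG-CTCFL arrays. This sum weighs most on Tfap2c, the brightest of the 8 at a control mean of 9.28. Of 7 neural progenitor markers 2 rose, Nes by 0.68 and Pax6 by 0.32 (10.91 to 11.01 against 11.06 to 11.11). The part of these cell type markers in the levels of the 7 genes was not tested.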

How the data were processed

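The authors deposited 1 value per probe set and array, on a log2 scale as judged from the range of 5.73 to 14.56. How they corrected the background, summarised the probes and scaled the log2 values before deposit is a matter not given in the sources used here. A shift common to the whole transcriptome would go unseen. Array medians were 7.92 to 7.99. Of 34760 probe sets, 21640 had 1 symbol in the platform annotation, 1321 had several and 11799 had none. Symbols were brought up to date through Entrez IDs in the RefSeq GRCm38.p6 table, where 21553 matched and 87 kept the old name. For each gene the probe set with the highest mean was used and 1703 others were dropped, leaving 19937 genes with no filter on dim ones. The build of the arrays is not stated, so the only coordinates given are those of the RefSeq windows before start sites.

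The fit used limma 3.58.1 (R 4.3.3), lmFit followed by eBayes, with no term but group. P-values were two-sided and Benjamini-Hochberg adjusted over all genes, with a threshold of 0.05. The procedure was tested on simulated data. A positive difference means higher with FLAG-CTCFL, and SE is limma's moderated one. The 7 genes and the lists were chosen with earlier results of these data known. Named are the 7 genes and Ctcfl, and from each list the genes past the threshold with the 6 smallest p in each direction and the closest paralogs or partners of the 7. Neighbours past the threshold, the nearest neighbour on each side, the 3 likest genes to each and listed markers are also named, and Pim2 was named after its values were seen. A group mean under 7.62 is called within background. Figures were made in Python 3.11.15 with matplotlib 3.10.9. As alternatives, replicate number was added as a block, arrays were quantile normalized, centred on their medians or weighted, genes under the 25th or 50th percentile of signal were removed, probe sets were averaged, the variance was fitted with a trend and robustly, the threshold was moved to 0.1, changes under 1.5-fold were dropped, and each array was left out. Scan dates and protein sequences were not used here.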

Additional observations from a re-analysis of the deposited data

How the results depend on the processing

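All 7 genes stayed higher with FLAG-CTCFL under every alternative that gave them a value. The alternatives reuse the arrays on which the genes were chosen, so this is not separate evidence for the rises. Differences ranged from 1.97 to 2.05 for Scml2, 2.17 to 2.23 for Ct55, 1.69 to 1.87 for Nxf3, 0.56 to 0.63 for Taf7l, 0.55 to 0.70 for Usp26, 0.72 to 0.90 for Tex16 (0.90 with array weights, which gave FLAG-CTCFL replicate 3 a weight of 5.77) and 0.86 to 0.96 for Cited1. Tex16 did not pass the filter at the 50th percentile. Over all genes, 709 passed with a minimum change of 1.5-fold (157 higher, 552 lower). Higher genes numbered 3943 after quantile normalization and 4195 with array weights; the share of calls that were higher was 40.5% as reported, 54.4% after quantile normalization, 46.2% with array medians subtracted and 45.6% with array weights. With the replicate number as a block 5979 genes passed, 2398 higher and 3581 lower. Deviations of same-numbered arrays correlated at 0.134, -0.204 and -0.0208. Control replicate 3 correlated at -0.349 and 0.339 with FLAG-CTCFL replicates 1 and 2. Since arrays of different number reached such values, the correlations cannot decide whether the numbers pair the samples, which the labels do not say. For X-linked germ cell genes, 3 and 2 were higher with the filters at the 25th and 50th percentile, 3 were lower with array weights, and leaving out 1 array gave 4 to 7 higher and 1 to 2 lower. For mRNA export genes, 20 were higher after quantile normalization and 15 with array weights, 1 was lower with array medians subtracted, and leaving out 1 array gave 1 to 3 lower. For Polycomb genes, 6 were higher after quantile normalization and 8 with array weights, 10 were lower with array weights and 8 at an adjusted p of 0.1, and leaving out 1 array gave 1 to 5 higher and 4 to 9 lower. For deubiquitinases, 1 and 0 were higher with the filters. For the CITED list, 4 were higher after quantile normalization, 2 with the filter at the 50th percentile, 3 with array weights and 2 at an adjusted p of 0.1, and 0 to 3 with 1 array left out. TFIID genes gave 6 to 11 higher with 1 array left out. Of the neighbours, 3 were higher with the filter at the 50th percentile and 16 with array weights. Filters test fewer genes; for the other shifts the cause was not tested. A signal within background in 1 group makes a difference a lower bound, as for Tex16 and, among other genes named, Hs6st2, 1700013H16Rik, 1700080O16Rik, Xlr, Dnajc5g, Slc6a19, Cyp11a1, Cdx2, Pof1b and Tmem35a.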
